A study of Mus musculus with 6 samples.

Results

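RNA levels of 10 genes of early B-lymphoid development were followed in mouse blood progenitors that carried a leukaemia fusion with or without LIN28B. The genes were Rag1, Rag2, Dntt, Ebf1, Il7r, Cd79a, Cd79b, Ighm, Pou2f2 and Mzb1, and each was found by its symbol among the 55471 gene IDs of the deposited table. Of these, 8 were picked by name for their place in B-cell development, with earlier results of these data known. Pou2f2 and Mzb1 were added because they rose in this comparison, so their values are given as a description with no test. The L28BME group had the genotype LIN28B*MLL-ENL, and the ME group had MLL-ENL alone. In both groups, granulocyte-monocyte-lymphoid progenitors (GMLPs) were sorted from bone marrow as Lin- Kit+ Sca1+ CD48+ CD150- cells and kept for 3 days in culture with DOX, so the fusion, the culture and DOX are shared by both groups. Each group had 3 RNA sequencing libraries. The age and strain of the mice, the promoters that drive the transgenes, and whether the libraries came from separate animals or cultures remain unstated in the labels. The p-values therefore reflect no more than the variation among these libraries, which may be technical.

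B cells arise from lymphoid-primed progenitors in which the transcription factor EBF1, with E2A and PAX5, opens the B-lineage genes and in which IL-7 gives a survival and growth signal through its receptor. The RAG1 and RAG2 proteins then cut the immunoglobulin heavy chain locus, terminal deoxynucleotidyl transferase (TdT, from Dntt) adds untemplated bases at the joints, and the heavy chain reaches the surface with the signalling subunits CD79A and CD79B. Transcripts of the unrearranged heavy chain locus are made before it is cut, so Ighm RNA alone does not mark a B cell. LIN28B binds RNA, is made in fetal blood cells and keeps let-7 microRNA precursors from maturing, and mouse B-lymphopoiesis in fetal life is known for its low TdT.

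The deposited values were TPM, a transcript level scaled for transcript length and for the total of each library. TPM keep no depth, so the number of reads behind a value is unknown. At least 1 TPM was reached by 13215 to 13288 genes per library. Lin28b had 11.2, 11.7 and 11.9 TPM in L28BME and was listed at 0 in all ME libraries. The genotype label of L28BME names LIN28B, and that of ME does not. A gene was tested when it had at least 1 TPM in at least 3 of the 6 libraries, by limma on log2(TPM + 1), with Benjamini-Hochberg adjustment over all 13348 such genes. Genes with an adjusted p below 0.05 count as called. By this rule 1105 genes were higher in L28BME (8.28%) and 881 were lower (6.6%), and the median log2 difference over all tested genes was 0.003.

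Of the 8 genes picked by name, 6 were called higher in L28BME, 1 (Dntt) was called lower, and Cd79a was too low to be tested, beside 8.28% higher and 6.6% lower over all tested genes. For all 8 the L28BME and ME libraries were fully separate, with 7 higher and 1 lower in L28BME. The same held in either direction for 36.7% of tested genes. Because the genes were named with earlier results known, these counts are a description and not support for a shared direction. Dntt passed the expression minimum only through the ME libraries and Il7r only through the L28BME libraries, so a difference was built into their being tested. The other 5 (Rag1, Rag2, Ebf1, Cd79b and Ighm) passed it in every library. In bulk RNA, a larger number of cells of one type and more RNA per cell cannot be told apart, and this holds for every difference below.

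**Figure D1:**
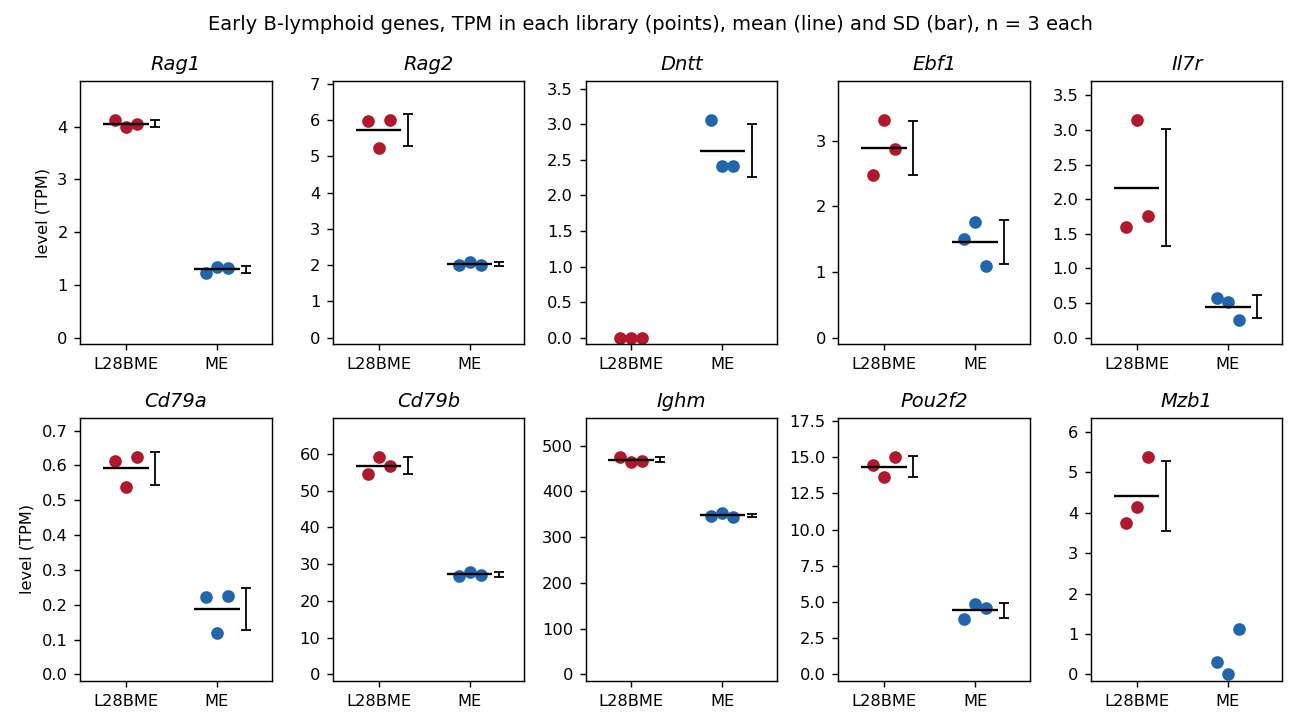
Level (TPM, linear axis from 0) of each of the 10 genes in each of the 3 L28BME and 3 ME libraries (points), with the mean (line) and SD (bar) except where a library is listed at 0. The groups do not overlap in any panel: Dntt is listed at 0 in all L28BME libraries and lies between 2.41 and 3.06 TPM in ME, and the other 9 genes are higher in L28BME.

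The recombinase genes Rag1 and Rag2 were both about 3-fold higher in L28BME, whereas Dntt, which acts in the same reaction, was listed at 0 there. Rag1 (ENSMUSG00000061311; GRCm38 chr2:101638282-101649501, minus strand) had 4.12, 3.99 and 4.05 TPM in L28BME libraries, against 1.22, 1.34 and 1.32 TPM in ME libraries. All L28BME libraries lay above all ME libraries, and the spread within each group was small. Means were 4.05 ± 0.0675 TPM in L28BME and 1.29 ± 0.0635 TPM in ME (SD, n = 3 each), a 3.13-fold ratio, and the log2 difference was 1.14 (SE 0.0879, limma adjusted p = 0.00105). Rag2 (ENSMUSG00000032864; chr2:101624718-101632529, plus strand), which encodes the other recombinase subunit, had 5.97, 5.23 and 5.995 TPM in L28BME libraries, against 1.99, 2.09 and 2.02 TPM in ME libraries. The groups again stood apart in every library. Rag2 averaged 5.73 ± 0.436 TPM in L28BME and 2.03 ± 0.0507 TPM in ME (SD, n = 3 each), a 2.82-fold ratio, and the log2 difference was 1.15 (SE 0.0903, limma adjusted p = 0.00112). The level of Rag2 per Rag1 was 1.41 ± 0.0896 in L28BME and 1.57 ± 0.0502 in ME (SD, n = 3 each), with the L28BME libraries at 1.31 to 1.48 and the ME libraries at 1.53 to 1.63.

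The Rag genes lie beside each other, and the gene model B230118H07Rik shares 80 exonic bases with Rag1 on the same strand and 208 with Rag2 on the opposite strand. B230118H07Rik itself had 22.3, 25.2 and 20.4 TPM in L28BME, against 18.7, 18.3 and 20.3 TPM in ME, and was not called (limma adjusted p = 0.148). Its level is several times that of either Rag gene, so a summed value is mostly its own. With Rag1 and B230118H07Rik summed, the log2 difference was 0.37 (limma adjusted p = 0.0285). With both Rag genes and B230118H07Rik summed, it was 0.51 (limma adjusted p = 0.00435). Use of strand in the authors' TPM is not stated in the labels or processing notes.

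Dntt (ENSMUSG00000025014; chr19:41029275-41059525, plus strand) was listed at 0 in all 3 L28BME libraries and had 3.06, 2.42 and 2.41 TPM in ME libraries. The groups were fully apart, in the opposite direction to Rag1 and Rag2 (limma adjusted p = 0.000681). No fold is given against a group at 0. Among the 13348 tested genes, Dntt was the only one listed at 0 in every L28BME library, while 5 genes were listed at 0 in every ME library. An exact 0 in a table of TPM can be a failed estimate. Of 102 ribosomal and proteasome genes, which all cells use, 1 was listed at 0 in some libraries: Psmd10 had 0.752, 0.111 and 0 TPM in L28BME and 0, 3.79 and 0 TPM in ME. The zeros of Psmd10 fell in both groups. This 1 gene cannot show whether the zeros of Dntt are failed estimates, which was not tested.

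The promoters of the 3 recombination genes are shown because Rag1 and Rag2 differed one way and Dntt the other in the same cells. Each window holds 250 bases before and 50 bases from the RefSeq start site (GRCm38.p6), 5′ to 3′ on the gene's strand: chr2:101649483-101649782 (minus) for Rag1, chr2:101624462-101624761 (plus) for Rag2 and chr19:41029025-41029324 (plus) for Dntt. Capitals mark each E-box, CANNTG, the motif bound by E2A and related factors, which reads the same on both strands.
Rag1: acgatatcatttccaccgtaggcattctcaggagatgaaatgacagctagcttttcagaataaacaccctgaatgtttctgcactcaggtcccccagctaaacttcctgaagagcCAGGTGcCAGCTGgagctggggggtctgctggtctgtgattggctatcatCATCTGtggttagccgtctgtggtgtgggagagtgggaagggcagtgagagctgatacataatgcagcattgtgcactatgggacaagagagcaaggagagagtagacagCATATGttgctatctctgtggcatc
Rag2: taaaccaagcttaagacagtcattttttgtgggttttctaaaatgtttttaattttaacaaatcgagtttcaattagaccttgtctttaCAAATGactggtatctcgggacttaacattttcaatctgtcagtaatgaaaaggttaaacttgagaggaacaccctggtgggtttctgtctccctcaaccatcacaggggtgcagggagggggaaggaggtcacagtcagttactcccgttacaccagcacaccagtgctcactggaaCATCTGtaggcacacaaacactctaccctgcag
Dntt: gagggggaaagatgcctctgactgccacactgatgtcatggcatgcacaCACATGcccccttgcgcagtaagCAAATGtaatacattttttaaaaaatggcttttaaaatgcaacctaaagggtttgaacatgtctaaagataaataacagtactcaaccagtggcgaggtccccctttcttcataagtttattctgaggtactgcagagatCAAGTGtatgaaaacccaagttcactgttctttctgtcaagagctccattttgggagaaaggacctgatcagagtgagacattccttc
The windows hold 4, 2 and 3 E-boxes for Rag1, Rag2 and Dntt. At least 1 E-box is found in 72.3% of all 32851 RefSeq windows, so its presence in each of these is common. The octamer ATGCAAAT, the motif of POU2F2 and its relatives, was searched on both strands and is in 1.74% of all windows and in 0 of the 8 windows matched to 7 of the 10 genes. The EBF1 core CCCNNGGG, searched on both strands, is in 13.7% of all windows and in 0 of the 8. The Ikaros core TGGGAA, searched on both strands, is in 25.6% of all windows and in 2 of the 8, those of Rag1 and Ebf1. These are matches of letters in short windows and say nothing of binding. Cd79b, Ighm and Mzb1 had no window, so their promoters were not searched.

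The heavy chain constant gene Ighm was the most abundant of the 10 genes and rose by the smallest ratio among those called higher. Ighm (ENSMUSG00000076617; chr12:113418558-113422730, minus strand, annotated as an immunoglobulin constant gene) had 475, 465 and 467 TPM in L28BME libraries, against 347, 352 and 344 TPM in ME libraries. The libraries within a group agreed closely and the groups stood apart. Ighm averaged 469 ± 5.43 TPM in L28BME and 348 ± 3.82 TPM in ME (SD, n = 3 each), a 1.35-fold ratio, and the log2 difference was 0.43 (SE 0.0246, limma adjusted p = 0.000456).

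Cd79b (ENSMUSG00000040592; chr11:106311341-106314762, minus strand), a signalling subunit of the B cell receptor, had 54.5, 59.2 and 56.8 TPM in L28BME libraries, against 26.7, 27.99 and 27.0 TPM in ME libraries. Every L28BME library was close to 2 times the level of every ME library. Cd79b averaged 56.9 ± 2.33 TPM in L28BME and 27.2 ± 0.673 TPM in ME (SD, n = 3 each), a 2.09-fold ratio, and the log2 difference was 1.03 (SE 0.0481, limma adjusted p = 0.000265). Its partner subunit gene Cd79a (ENSMUSG00000003379; chr7:24897381-24902197, plus strand) had 0.612, 0.538 and 0.625 TPM in L28BME libraries, against 0.221, 0.119 and 0.225 TPM in ME libraries. These values do not overlap, but no library reached 1 TPM, so Cd79a was below the expression minimum. Cd79a averaged 0.592 ± 0.0464 TPM in L28BME and 0.188 ± 0.0601 TPM in ME (SD, n = 3 each), a 3.14-fold ratio, and with no minimum the log2 difference was 0.42 (SE 0.0607, limma adjusted p = 0.0165). The level of Cd79b was 96.7 ± 11.5 times that of Cd79a in L28BME and 159 ± 66.4 times in ME (SD, n = 3 each). The receptor subunits, which pair in the protein complex, were therefore far from equal in RNA in both groups.

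Il7r (ENSMUSG00000003882; chr15:9505788-9530176, minus strand), the specific chain of the IL-7 receptor, had 1.597, 3.14 and 1.76 TPM in L28BME libraries, against 0.567, 0.515 and 0.256 TPM in ME libraries. The groups did not overlap, and 1 L28BME library was well above the other 2. The mean level was 2.17 ± 0.848 TPM in L28BME and 0.446 ± 0.167 TPM in ME (SD, n = 3 each), a 4.86-fold ratio, and the log2 difference was 1.11 (SE 0.214, limma adjusted p = 0.022). This call was lost without L28BME replicate 3 or without any 1 ME library (limma adjusted p = 0.0347 to 0.0729 over the 6 fits that each leave out 1 library).

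Ebf1 (ENSMUSG00000057098; chr11:44617317-45008091, plus strand), the factor that commits progenitors to the B lineage, had 2.48, 3.31 and 2.87 TPM in L28BME libraries, against 1.51, 1.77 and 1.09 TPM in ME libraries. The groups were apart, by less than for the Rag genes. The mean level was 2.89 ± 0.416 TPM in L28BME and 1.46 ± 0.340 TPM in ME (SD, n = 3 each), a 1.98-fold ratio, and the log2 difference was 0.67 (SE 0.149, limma adjusted p = 0.034). The call was lost when any 1 of the 6 libraries was left out (limma adjusted p = 0.0538 to 0.0976) and with no expression minimum (limma adjusted p = 0.0702).

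Pou2f2 (ENSMUSG00000008496; chr7:25087344-25179726, minus strand) encodes OCT2, an octamer-binding factor of B cells. It was chosen for its rise and had 14.4, 13.6 and 15.0 TPM in L28BME libraries, against 3.82, 4.83 and 4.59 TPM in ME libraries. The means were 14.3 ± 0.712 TPM in L28BME and 4.41 ± 0.530 TPM in ME (SD, n = 3 each), a 3.25-fold ratio and a log2 difference of 1.51. Its model shares 35 exonic bases with that of Mir6537, which stayed under 1 TPM in every library. Pou2f2 was the only one of the 9 genes with an annotated 3′ UTR in which the let-7 seed match CTACCTC was found. That match is present in 1997 of 21010 genes with a 3′ UTR (9.5%), and the longest annotated UTR of Pou2f2 has 5619 bases against a median of 960 over those genes. Both sites are shown, from GENCODE transcripts on GRCm38, minus strand, at chr7:25089973-25089999 and chr7:25091658-25091684, below 2 let-7 family members from RefSeq. Capitals mark the seed, bases 2 to 8 of the microRNA, which all 8 let-7 RNAs looked up share, and the matching bases of each site.
mmu-let-7a-5p: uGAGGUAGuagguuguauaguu
mmu-let-7g-5p: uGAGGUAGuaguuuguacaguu
Pou2f2 site 1: cctgccctcatcCTACCTCtgaagttg
Pou2f2 site 2: ctgctctggagtCTACCTCctccccag
The let-7 RNAs themselves were not measured here, and whether these sites bear on the level of Pou2f2 was not tested.

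Mzb1 encodes a chaperone-like protein of the endoplasmic reticulum that helps assemble and secrete immunoglobulin in marginal zone and plasma cells. Mzb1 (ENSMUSG00000024353; chr18:35647267-35649367, minus strand), also chosen for its rise, had 3.74, 4.13 and 5.38 TPM in L28BME libraries, against 0.305, 0 and 1.13 TPM in ME libraries. It reached 1 TPM in all 3 L28BME libraries and in 1 ME library, and the groups did not overlap. Its log2 difference was 1.94 with 1 TPM added before the logarithm, 2.49 with 0.5 and 3.60 with 0.1, so the size depends on a level near 0 in ME. The model SPATA24 (ENSMUSG00000117874) shares 695 exonic bases with Mzb1 on the same strand and had 0, 0 and 0 TPM in L28BME, against 0.047, 0.537 and 0.019 TPM in ME. With all models that share exonic bases with these summed, which brings in Spata24 at 46.2 to 48.8 TPM in L28BME and 35.2 to 40.5 TPM in ME, the log2 difference was 0.43.

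**Figure D2:**
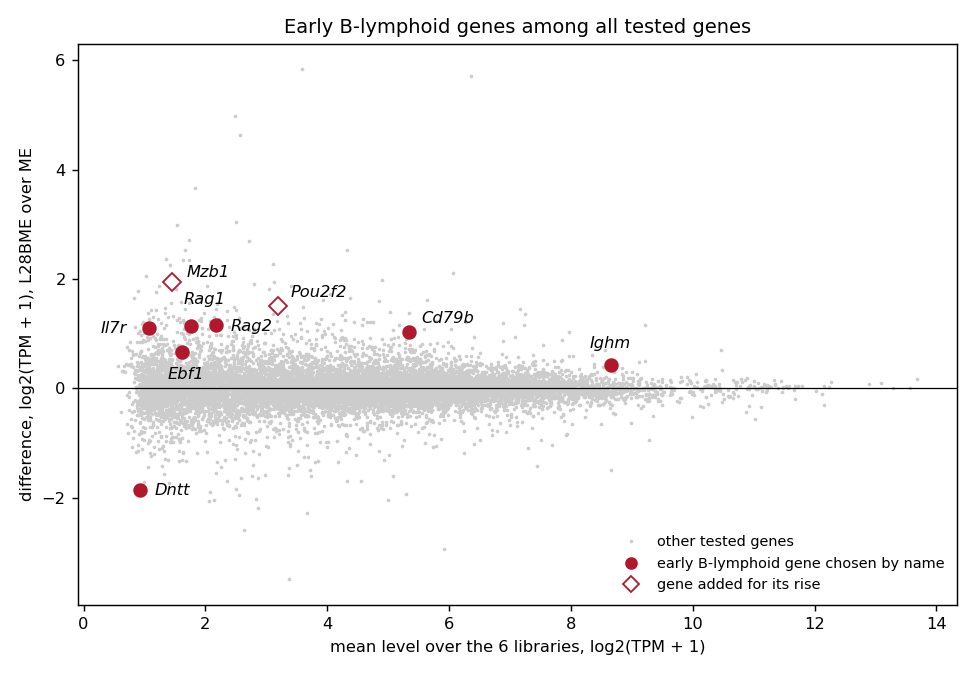
Difference between L28BME and ME (log2 of TPM + 1) against the mean level over the 6 libraries (log2 of TPM + 1) for all 13348 tested genes (grey), with the early B-lymphoid genes picked by name as filled circles and the 2 added for their rise as open diamonds. Dntt lies below 0 at a value that depends on the 1 TPM added, and Cd79a is absent because it was not tested.

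The order of levels, in TPM and so per length, differed between the groups mainly in the place of Dntt. In L28BME the means ran from Ighm through Cd79b, Pou2f2, Rag2, Mzb1, Rag1, Ebf1, Il7r and Cd79a to Dntt. The library ranges of Rag2 and Mzb1, of Mzb1 and Rag1, and of Ebf1 and Il7r overlapped there. In ME the means ran from Ighm through Cd79b, Pou2f2, Dntt, Rag2, Ebf1, Rag1, Mzb1 and Il7r to Cd79a. The ranges of Ebf1 and Rag1 and of Mzb1 and Il7r overlapped there. Because Cd79b rose more than Ighm, Ighm was 8.26 ± 0.431 times Cd79b in L28BME and 12.8 ± 0.211 times in ME (SD, n = 3 each).

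Several genes of committed and mature B cells were at or near 0 in both groups, while others of the same lists were not. Pax5, which fixes B-lineage identity, had 0.07 to 0.18 TPM in L28BME and 0.03 to 0.08 TPM in ME. The lambda light chain genes Iglc1, Iglc2 and Iglc3 and the mature B-cell receptors Cr2 and Fcer2a were listed at 0 in all 6 libraries. The surrogate light chain genes did not separate the groups. Vpreb1 had 2.87, 1.73 and 1.496 TPM in L28BME and 2.57, 2.65 and 1.17 TPM in ME (limma adjusted p = 0.953). Igll1 had 0.707, 0.341 and 1.83 TPM in L28BME and 1.19, 1.44 and 2.19 TPM in ME (limma adjusted p = 0.366). Of the 12 genes of the pre-B cell receptor and immunoglobulin chains, the 3 tested that are not among the 10 (the third is Ighd, with 1.499, 3.98 and 1.87 TPM in L28BME and 1.13, 0.838 and 0.761 TPM in ME) gave no call.

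**Figure D3:**
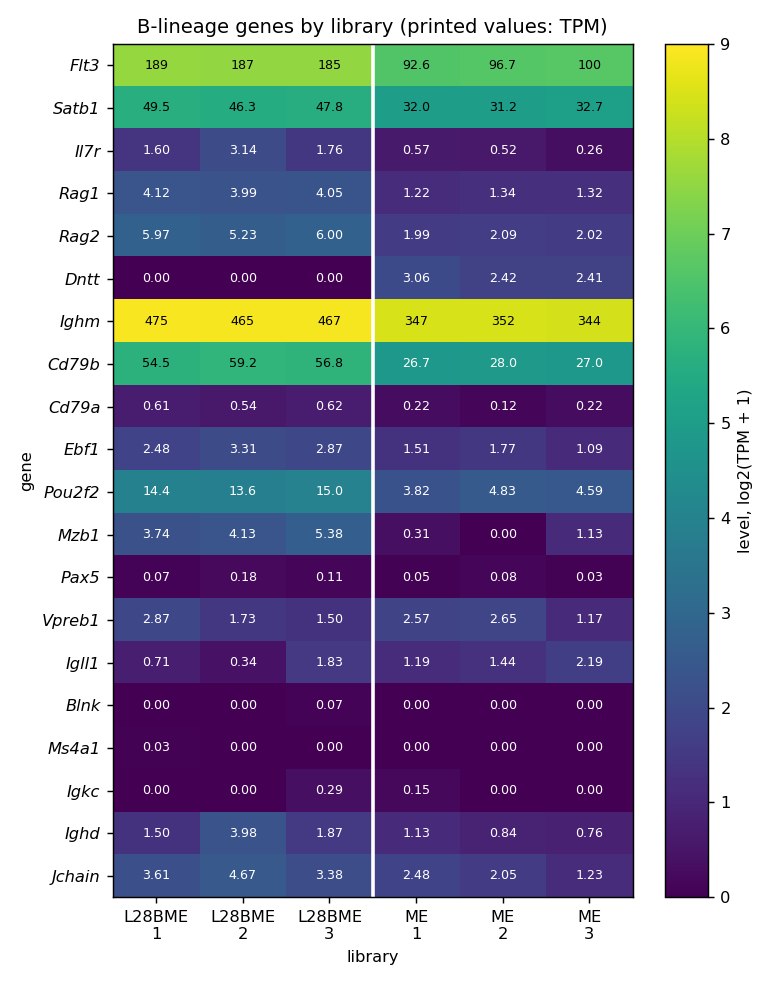
Level of B-lineage genes in each library (colour, log2 of TPM + 1; printed values, TPM), with the 3 L28BME libraries left of the 3 ME libraries. Rag1, Rag2, Ighm and Cd79b are brighter in every L28BME library, Dntt is dark there, and Pax5, Ms4a1, Blnk and Igkc are at or near 0 throughout.

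The remaining partners of each gene were taken from lists chosen with earlier results known, and are given beside 8.28% higher and 6.6% lower over all tested genes. In V(D)J recombination and end joining, 1 of 13 tested genes outside the 10 was called higher and 0 lower, with a median log2 difference of 0.0. The call was Poll, a gap-filling polymerase, at 31.6 ± 0.602 TPM in L28BME and 27.6 ± 0.859 TPM in ME (SD, n = 3 each; log2 difference 0.19, limma adjusted p = 0.0431), and it was lost when any 1 library was left out (limma adjusted p = 0.0797 to 0.118). The other 12, which include the Ku subunits Xrcc5 and Xrcc6 and the ligase Lig4 that joins the cut ends, were not called.

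Among B-lineage transcription factors, 3 of 18 tested genes outside the 10 were called higher and 0 lower, with a median log2 difference of 0.21. Ikzf1 (Ikaros, a factor of all lymphoid lineages) had 75.2 ± 0.645 TPM in L28BME and 58.4 ± 3.44 TPM in ME (SD, n = 3 each; limma adjusted p = 0.00763). Bcl11a, needed for early B cells, had 34.9 ± 2.27 TPM in L28BME and 26.2 ± 1.14 TPM in ME (SD, n = 3 each; limma adjusted p = 0.0122). Spib, a relative of PU.1 in B cells and plasmacytoid dendritic cells, had 5.603 ± 0.523 TPM in L28BME and 3.15 ± 0.601 TPM in ME (SD, n = 3 each; limma adjusted p = 0.0257), a call lost without L28BME replicate 1 or 3 or ME replicate 1 or 2 (limma adjusted p = 0.044 to 0.0832 over the 6 fits).

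In IL-7 receptor signalling, 3 of 12 tested genes outside the 10 were called higher and 1 lower, with a median log2 difference of 0.05. Flt3, the receptor of lymphoid-primed progenitors that acts beside IL-7, had 187 ± 2.10 TPM in L28BME and 96.6 ± 3.96 TPM in ME (SD, n = 3 each; log2 difference 0.95, SE 0.0389, limma adjusted p = 0.00016). Jak3, the kinase bound to the shared cytokine receptor chain, had 22.3 ± 0.503 TPM in L28BME and 14.9 ± 0.786 TPM in ME (SD, n = 3 each; limma adjusted p = 0.00311). Socs3, a feedback inhibitor, was called higher at 25.3 ± 0.663 TPM in L28BME and 20.9 ± 0.839 TPM in ME, and Jak1, the kinase on the IL-7 receptor chain, was called lower at 98.2 ± 0.781 TPM in L28BME and 110 ± 2.67 TPM in ME (SD, n = 3 each). The limma adjusted p was 0.025 for Socs3, whose call was lost without any 1 library, and 0.0273 for Jak1, whose call was lost without any 1 library except ME replicate 1.

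In B cell receptor signalling, 6 of 14 tested genes outside the 10 were called higher and 1 lower, with a median log2 difference of 0.16. Fyn, a Src-family kinase, had 54.4 ± 1.998 TPM in L28BME and 33.2 ± 3.45 TPM in ME (SD, n = 3 each; limma adjusted p = 0.00399). Plcg2, the phospholipase downstream of the receptor, had 191 ± 5.16 TPM in L28BME and 141 ± 0.983 TPM in ME (SD, n = 3 each; limma adjusted p = 0.000902). Cd72, an inhibitory co-receptor, Cd81, a tetraspanin, and Prkcb, a protein kinase C, were also called higher, by log2 differences of 0.51, 0.47 and 0.42. Dapp1, an adaptor of the pathway, was called lower, at 117 ± 6.28 TPM in L28BME and 152 ± 2.85 TPM in ME (SD, n = 3 each; limma adjusted p = 0.0044). Many of these genes also act in other blood cells.

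B-lineage surface proteins went both ways, with 3 of 7 tested genes called higher and 2 lower. Cd38 had 2.01 ± 0.139 TPM in L28BME and 0.886 ± 0.0200 TPM in ME (SD, n = 3 each; limma adjusted p = 0.00917) and reached the minimum only through L28BME, so a difference was built into its test. Cd72 and Cd93 were the other higher calls, the last of which was lost without any 1 library (limma adjusted p = 0.0407 with all 6, 0.0583 to 0.11 without 1). With a term for replicate number, 0 genes of this list were called higher and 2 lower. Cd24a, the heat stable antigen of early B cells and other progenitors, had 335 ± 6.05 TPM in L28BME and 408 ± 7.73 TPM in ME (SD, n = 3 each; limma adjusted p = 0.00254). Spn (CD43, of early B-lymphoid and myeloid cells) had 285 ± 7.27 TPM in L28BME and 356 ± 7.74 TPM in ME (SD, n = 3 each; limma adjusted p = 0.00251).

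Of 9 tested genes that work with MZB1 or in the secretory pathway, outside the 10, 0 were called higher, 5 were called lower and 4 were not called, with a median log2 difference of -0.24. Hsp90b1 (GRP94, a partner of MZB1) had 1098 ± 17.4 TPM in L28BME and 1339 ± 15.8 TPM in ME (SD, n = 3 each; limma adjusted p = 0.00132). Hspa5 (BiP, the heavy chain binding protein) had 645 ± 29.8 TPM in L28BME and 797 ± 20.8 TPM in ME (SD, n = 3 each; limma adjusted p = 0.00645). Jchain, Herpud1 and Dnajb9 had positive log2 differences of 0.76, 0.21 and 0.10 that were not called (limma adjusted p = 0.0548, 0.235 and 0.35). The disulfide isomerase genes Pdia4 and Pdia6 differed by -0.25 and -0.24 on the log2 scale. Xbp1, the secretory factor of plasma cells, differed by -0.27 (limma adjusted p = 0.0184), a call lost without L28BME replicate 2 or ME replicate 2 or 3 (limma adjusted p = 0.0237 to 0.0604 over the 6 fits).

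**Figure D4:**
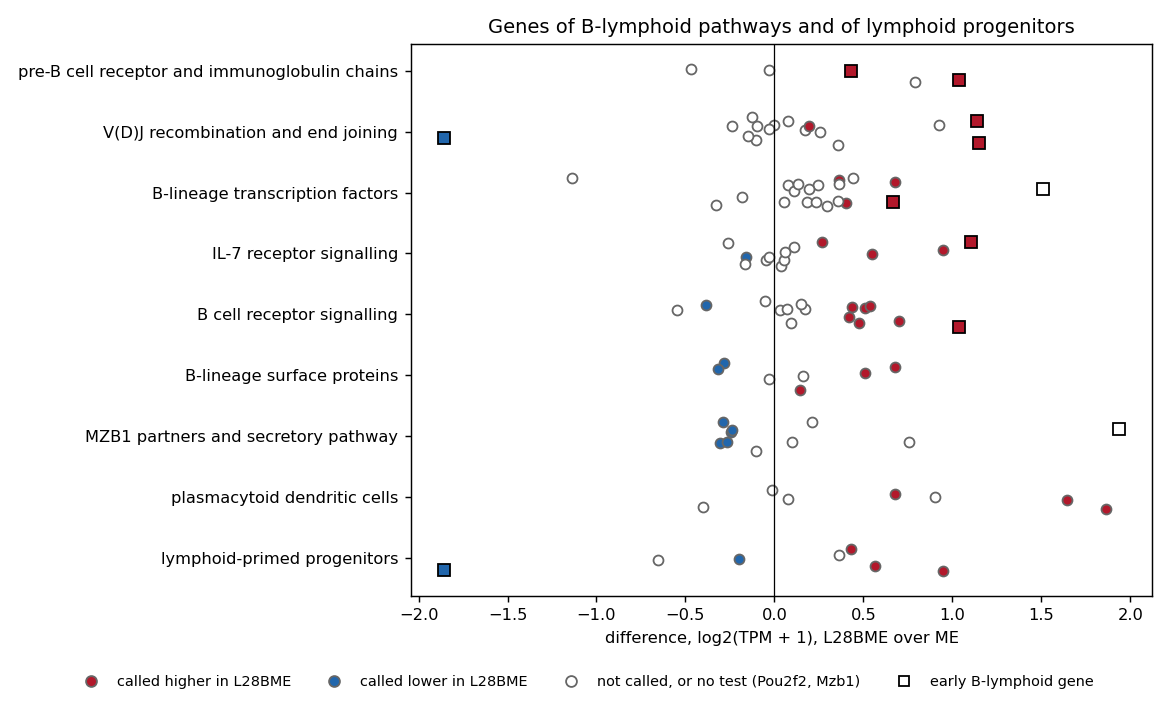
Difference between L28BME and ME (log2 of TPM + 1) for each tested gene of 9 lists (rows), coloured by whether it was called higher or lower in L28BME, with squares for the early B-lymphoid genes. Cd79b and Dntt appear in 2 rows each, Pou2f2 and Mzb1 are open because they were not tested, and most genes of end joining lie near 0 while Rag1 and Rag2 do not.

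Markers of other cell types moved with the same contrast, and their part in the levels of the 10 genes was not tested. For plasmacytoid dendritic cells, some of which are known to carry Rag transcripts and heavy chain rearrangements, 6 of 8 markers averaged at least 1 TPM in L28BME and 6 of 8 in ME, and their summed level was 244 to 255 TPM in L28BME and 209 to 221 TPM in ME. Ccr9, the gut homing receptor, had 5.69, 7.17 and 7.56 TPM in L28BME, against 1.38, 1.14 and 0.899 TPM in ME (log2 difference 1.87, SE 0.141, limma adjusted p = 0.00101). Cox6a2 had 31.6, 34.3 and 41.9 TPM in L28BME, against 12.4, 12.6 and 7.85 TPM in ME (log2 difference 1.64, SE 0.196, limma adjusted p = 0.00415). The defining surface marker Siglech went the other way, with 0.972, 0.926 and 0.631 TPM in L28BME and 1.58, 1.47 and 1.24 TPM in ME. Its libraries did not overlap, it was not called (limma adjusted p = 0.0995), and it reached the minimum only through ME. Most of the summed level was Bst2, at 153 TPM in L28BME and 154 TPM in ME (limma adjusted p = 0.874). Of 7 tested markers, 3 (Ccr9, Cox6a2 and Spib) were called higher and 0 lower, beside 8.28% and 6.6% over all tested genes. Klk1 was listed at 0 throughout.

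For mature B and plasma cells, 3 of 9 markers averaged at least 1 TPM in L28BME and 2 of 9 in ME, and their summed level was 28.1 to 32.7 TPM in L28BME and 19.6 to 20.5 TPM in ME. Most of that sum was Sdc1 (CD138, a plasma cell marker also made by other cells), the only one of the list called, with 22.7, 23.8 and 23.3 TPM in L28BME, against 16.0, 17.5 and 17.5 TPM in ME (limma adjusted p = 0.00639). Jchain, which joins secreted immunoglobulin, had 3.61, 4.67 and 3.38 TPM in L28BME, against 2.48, 2.05 and 1.23 TPM in ME, with no overlap and no call (limma adjusted p = 0.0548). For T cells, 4 of 15 averaged at least 1 TPM in each group, with sums of 148 to 163 TPM in L28BME and 196 to 206 TPM in ME, and Cd3e, Bcl11b, Cd8a, Ptcra, Trbc1 and Trbc2 were listed at 0. The T-cell kinase gene Lck was called higher, at 33.1 ± 2.03 TPM in L28BME and 19.8 ± 0.686 TPM in ME (SD, n = 3 each; limma adjusted p = 0.00151), and the surface glycoprotein gene Thy1 lower, at 82.9 ± 7.56 TPM in L28BME and 144 ± 5.38 TPM in ME (SD, n = 3 each; limma adjusted p = 0.00162). Thy1 was the largest part of the T-cell sum in both groups. Lat (34.3 TPM in L28BME and 33.0 TPM in ME) and Tcf7 (3.65 TPM in L28BME and 3.30 TPM in ME) were not called. For NK cells, 1 of 6 averaged at least 1 TPM in each group, with sums of 2.19 to 3.52 TPM in L28BME and 1.21 to 1.85 TPM in ME, and Ncr1 was listed at 0. Prf1 (perforin) was called higher, with 1.42, 1.42 and 2.04 TPM in L28BME and 0.180, 0.533 and 0.711 TPM in ME (limma adjusted p = 0.0336), and reached the minimum only through L28BME. For lymphoid-primed progenitors the sums overlapped, at 809 to 874 TPM in L28BME and 814 to 859 TPM in ME. Within that list Flt3, Satb1 and Notch1 were called higher and Dntt and Cd34 lower.

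After culture, some genes of the sorting gate also differed. The summed level of Kit, Ly6a (Sca1) and Cd48 was 303 to 321 TPM in L28BME and 388 to 415 TPM in ME. Most of that sum was Cd48, at 228 TPM in L28BME and 297 TPM in ME (limma adjusted p = 0.00089). Kit overlapped between the groups and was not called (limma adjusted p = 0.311). Ly6a had 3.18, 1.38 and 1.65 TPM in L28BME, against 10.3, 11.8 and 9.64 TPM in ME (limma adjusted p = 0.00376). Itgam (CD11b), absent from the gate, had 13.6, 18.3 and 6.75 TPM in L28BME, against 41.8, 38.1 and 43.5 TPM in ME (limma adjusted p = 0.0208).

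The genes whose profile over the 6 libraries was most like the mean standardised profile of the 7 tested genes picked by name were Hmgn1, Sh3bp5, Xist, Spire1 and Pmvk, with Pearson r of 0.9993, 0.9985, 0.9981, 0.9976 and 0.9975. That mean profile was higher in L28BME and so ran opposite to Dntt, which is 1 of the 7. Hmgn1 averaged 173 TPM in L28BME and 138 TPM in ME. These r are a description over 6 libraries that fall into 2 groups, and 631 of 13339 genes reached an r of at least 0.95.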

How the data were processed

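The authors deposited TPM per gene and library, and per the submitters' processing notes they used bcl2fastq, HISAT2, StringTie and DESeq2 with GRCm38. The sources used here give no versions, annotation release or use of strand. Per the labels, RNA was isolated with a Norgen single cell kit and libraries were made with a stranded mRNA kit. The 60496 entries held 55471 gene IDs, and the 431 IDs listed more than once had values on 1 entry at most. TPM sums were 999919 to 999996 per library, depth is unknown, and no counting interval is given.

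Genes with at least 1 TPM in at least 3 of the 6 libraries were compared as log2(TPM + 1) with limma 3.58.1 in R 4.3.3 (intensity trend, two-sided, Benjamini-Hochberg over all 13348 genes, called under 0.05). The procedure was tested on simulated data in which changes were placed only in genes of higher level. It therefore does not test calls of genes as low as Rag1, Rag2, Dntt, Ebf1 and Il7r. Fold changes on this scale understate changes of low genes. Positions, overlaps and 3′ UTRs came from GENCODE M21 (GRCm38), which held 13341 of the tested IDs, and promoters and microRNAs from RefSeq (GRCm38.p6).

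The genes and lists were chosen with earlier results of these data known. All 10 genes are named. From each list, up to 6 called genes with the smallest p and genes at 0 in all libraries are named, as are genes whose models overlap one of the 10, and the 5 with the most similar profile. Alternatives were other pseudocounts, expression minimums, scalings and limma options, summing of overlapping models, a term for replicate number, and leaving out each library. Other tools were the R package data.table, version 1.17.8, Python 3.11.15, pandas 2.3.3, numpy 2.4.6 and matplotlib 3.10.9.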

Additional observations from a re-analysis of the deposited data

How the results depend on the processing

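Over the alternatives run, Rag1, Rag2, Cd79b and Ighm kept their direction and their call wherever they were tested, and none of the 10 genes reversed. Dntt kept its call too. It was listed at 0 in every L28BME library, so its direction was fixed in advance and the alternatives do not test it. Where B230118H07Rik was summed with Rag1 or with both Rag genes, the value was mostly that of B230118H07Rik. Those fits therefore do not test the Rag genes alone. Of the other list genes, uncalled ones near 0 changed sign in some alternatives, such as Vpreb1 in 4 of 16 and Lig4 in 5 of 16. Ebf1 lost its call in 8 of 16 alternatives and Il7r in 5 of 16. With a minimum of 5 TPM, 3 of the genes picked by name were called higher and 0 lower, since fewer were tested. Leaving out 1 library each gave 617 to 693 genes higher and 461 to 582 lower in the whole table, against 1105 and 881 with all 6, and 4 to 5 of the genes picked by name higher. The lowest whole-table counts came without ME replicate 2 (617 higher, 461 lower). The replicate numbers do not pair the samples (correlations of same-numbered deviations -0.032, -0.0743 and -0.0516). With the replicate block, 548 genes were higher and 400 lower, and 4 of the genes picked by name were higher, with limma adjusted p = 0.0704 for Ebf1 and 0.0543 for Il7r. Among B-lineage surface genes Cd38 and Cd72 lost their calls there (limma adjusted p = 0.0554 and 0.0562).

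Depth is unknown, so the counting error of the low genes is not known. Of the untested genes, the log2 difference of Mzb1 moved in 4 of 16 alternatives and that of Pou2f2 in 1 of 17 (1.68 with 0.1 TPM added).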

Other observations

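Other segments of the immunoglobulin loci, chosen after their values were seen, also differed. Of 8 variable segments tested, 6 were called higher in L28BME and 0 lower, beside 8.28% and 6.6% over all tested genes. Of these 6, Ighv1-75, Ighv1-76 and Ighv1-82 reached the minimum only through the L28BME libraries, so the count is a description only. Ighv1-77 had 17.7, 19.8 and 16.5 TPM in L28BME, against 3.03, 2.87 and 2.82 TPM in ME (log2 difference 2.28, SE 0.0881, limma adjusted p = 0.000154). Ighv1-23 had 22.0, 14.8 and 18.8 TPM in L28BME, against 7.97, 7.54 and 5.42 TPM in ME (log2 difference 1.29, SE 0.184, limma adjusted p = 0.00785). These segments have close relatives in the same family, so how reads were shared between them is uncertain. All annotated variable segments summed to 59.3 to 62.7 TPM in L28BME and 14.1 to 16.5 TPM in ME.

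Of the heavy chain joining segments, Ighj1 had 32.02, 35.4 and 36.6 TPM in L28BME, against 28.1, 21.1 and 18.8 TPM in ME (limma adjusted p = 0.0426), and Ighj2 had 24.1, 28.2 and 25.7 TPM in L28BME, against 19.0, 15.1 and 13.6 TPM in ME (limma adjusted p = 0.0202). Ighj3 and Ighj4 were not called (limma adjusted p = 0.135 and 0.0635). The only diversity segment above 0 was Ighd4-1, with 15.4, 17.1 and 12.02 TPM in L28BME and 9.95, 6.96 and 10.9 TPM in ME (limma adjusted p = 0.0819). Its model spans only chr12:113430528-113430538, and that of Ighj1 only chr12:113429781-113429833. TPM are scaled for transcript length, so values on models this short rest on few bases and are uncertain. Whether the differences of the joining and diversity segments are separate from that of Ighm was not tested. Igha, the constant gene of IgA, was lower, with 2.54, 2.84 and 3.40 TPM in L28BME, against 4.61, 4.94 and 5.27 TPM in ME (limma adjusted p = 0.0196).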
